A study of Mus musculus with 27 samples.

Results

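The comparison is between whole mouse embryonic stem cells from libraries labelled day 12 (n = 3) and whole cells from libraries labelled day 10 (n = 3), which are 6 of the 27 libraries of the series. Both groups carry the same label history. They come from DTCM23/49, an XY line whose Dicer allele is conditional, cultured in serum plus leukemia inhibitory factor (LIF) on gelatin, and both are labelled as cells after induced loss of Dicer function. In that protocol 4-hydroxytamoxifen at 800 nM deletes the RNase III domain, 0.1% ethanol is the control, and Dicer-deficient colonies are picked, expanded and passaged every few days. No library labelled day 10 or day 12 is marked as an ethanol control, and the labels do not say how many colonies each replicate came from. The other groups, used below only beside these, are whole cells at days 0, 4 and 8, and nuclear and cytoplasmic fractions at days 12 and 0, with 3 libraries each. The values are FPKM, a fragment count divided by transcript length and by library size, of polyadenylated RNA.

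Dicer is the RNase III enzyme that cuts microRNA precursors to mature microRNAs. In mouse embryonic stem cells the miR-290 family, with the miR-302 family that shares its seed, makes up much of the microRNA pool and is known to hold down inhibitors of the G1 to S transition such as Cdkn1a, Lats2 and Rbl2. Cells without Dicer lose these microRNAs, keep Pou5f1 and other pluripotency factors, and are known to differentiate poorly. Let-7, which accumulates as cells differentiate, targets Lin28a and is held back by Lin28 proteins.

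The targeted gene went against the label of 1 of the groups. Dicer1 held 16.7, 13.8 and 13.4 FPKM in the libraries labelled day 12, against 1.9, 1.9 and 1.68 FPKM in day 10. Every library labelled day 12 lay above every library of day 10, by 2.70 ± 0.16 on the log2 scale (SE from limma, which pools the spread over 15 whole cell libraries). This difference was known when the comparison was chosen and is given as a description, with no test. Whole cells at day 0 averaged 16.3 ± 1.47 FPKM, whereas the fractions labelled day 12 averaged 3.06 ± 0.366 FPKM in the cytoplasm and 4.2 ± 1.11 FPKM in the nucleus (SD, n = 3 each). The deleted exons were not counted apart from the rest of the gene here. All directions below are therefore between libraries labelled day 12, in which Dicer1 was high, and libraries labelled day 10, in which it was low.

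The capitals in the microRNAs below mark the seed, bases 2 to 8 from the 5′ end, through which a microRNA pairs with its targets. The sequences are the RefSeq entries on GRCm38.p6, and they are shown because 1 shared seed defines the sites that the target genes are sorted by.
miR-291a-3p: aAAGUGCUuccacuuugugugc
miR-294-3p: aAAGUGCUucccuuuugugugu
miR-295-3p: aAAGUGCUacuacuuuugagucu
miR-302b-3p: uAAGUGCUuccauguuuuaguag
miR-302d-3p: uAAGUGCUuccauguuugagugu
let-7a-5p: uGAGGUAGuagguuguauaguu

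Mature microRNAs were not measured in these polyadenylated libraries. What can be read is their targets. A site that pairs with bases 2 to 8 of the miR-290 and miR-302 family reads AGCACTT, and with an A after it AGCACTTA. Among 18 genes listed as targets of this family, 15 carry the 7-base site and 10 the 8-base site in the 3′ UTR. For each gene the longest 3′ UTR among its protein-coding transcripts in GENCODE M21 was read. The stretches below end at the site of 6 of them, with the site in capitals.
Lats2: tacagtatggaaagAGCACTTA
Cdkn1a: accgtgggtgtcaaAGCACTTA
Tgfbr2: atatcaaaacctaaAGCACTTA
Irf2: gcaccttatcttgaAGCACTTA
Rbl2: gtatttttcaataaAGCACTTA
Casp2: tgatataacctagaAGCACTT

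Over all genes the groups differed widely. Of the 15991 genes that averaged 0.5 FPKM or more on any whole cell day, 45.8% passed an adjusted p of 0.05 in limma. In the libraries labelled day 12, 3294 genes were higher (20.6%) and 4025 were lower (25.2%). The median over all genes was -0.02 on the log2 scale, and 674 of the higher and 1152 of the lower genes differed by more than 1. These shares are the background for each gene list, and a list whose counts lie near them differs little from genes at large. In bulk RNA, fewer cells of a type and less RNA per cell cannot be told apart.

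**Figure D1:**
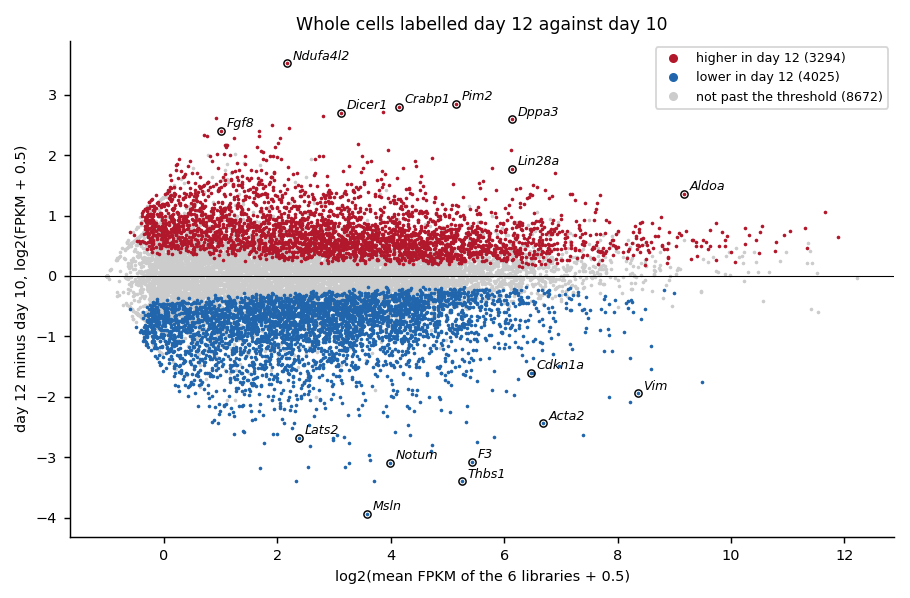
Difference of each of the 15991 genes (day 12 minus day 10, log2(FPKM + 0.5), vertical) against its mean level in the 6 libraries (horizontal, log2). Red points were higher in day 12 (3294), blue points lower (4025) and grey points not past the threshold, with Msln at -3.94 and Ndufa4l2 at 3.52 at the ends of the labelled genes.

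The listed miR-290 and miR-302 targets were mostly lower in the libraries labelled day 12. Of the 16 that reached the filter, 14 were lower and 1 was higher, with a median of -1.21, beside 25.2% lower over all genes. The list was chosen with earlier results of these data known, so its counts are a description. Lats2, a Hippo pathway kinase, held 0.848, 0.913 and 0.942 FPKM in day 12, against 8.63, 8.61 and 8.25 FPKM in day 10 (-2.68 ± 0.12, SE, adjusted p = 1.33e-08). The groups were far apart, and the level in day 12 was close to the 0.655 ± 0.0944 FPKM of whole cells at day 0 (SD, n = 3). Tgfbr2, the type II receptor for TGF-beta, held 0.7, 0.555 and 0.63 FPKM in day 12, against 4.58, 5.71 and 4.93 FPKM in day 10 (-2.30 ± 0.13, adjusted p = 9.08e-08). Cdkn1a, the cyclin-dependent kinase inhibitor p21, held 41.6, 44.4 and 44.1 FPKM in day 12, against 129, 132 and 138 FPKM in day 10 (-1.60 ± 0.15, adjusted p = 3.84e-06). No library of either group overlapped the other for these genes, as was so for 34.4% of all genes with day 12 below and 29.3% with day 12 above.

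Among the other targets, the interferon regulatory factor Irf2 was lower by -1.57 ± 0.22, the caspase Casp2 by -1.48 ± 0.10 and the retinoblastoma relative Rbl2 by -1.26 ± 0.18 on the log2 scale (SE, adjusted p = 9.37e-05, 3.72e-07 and 9.13e-05). Casp2 held between 2.31 and 2.49 FPKM over the libraries of day 12, against 7.35 to 7.83 FPKM in day 10. The exception was Lefty2, a secreted inhibitor of Nodal, which was higher in day 12 (50.2 FPKM, against 34.4 FPKM in day 10, 0.54, adjusted p = 0.00207), although its 3′ UTR carries the 8-base site. Btg1, which also carries the 8-base site, did not pass (7.11 FPKM in day 12 and 6.13 FPKM in day 10, adjusted p = 0.43). Btg2, among the lower targets, carries neither the 7-base nor the 8-base site. Dkk1 and Nr2f2 stayed under the filter in all whole cell days.

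**Figure D2:**
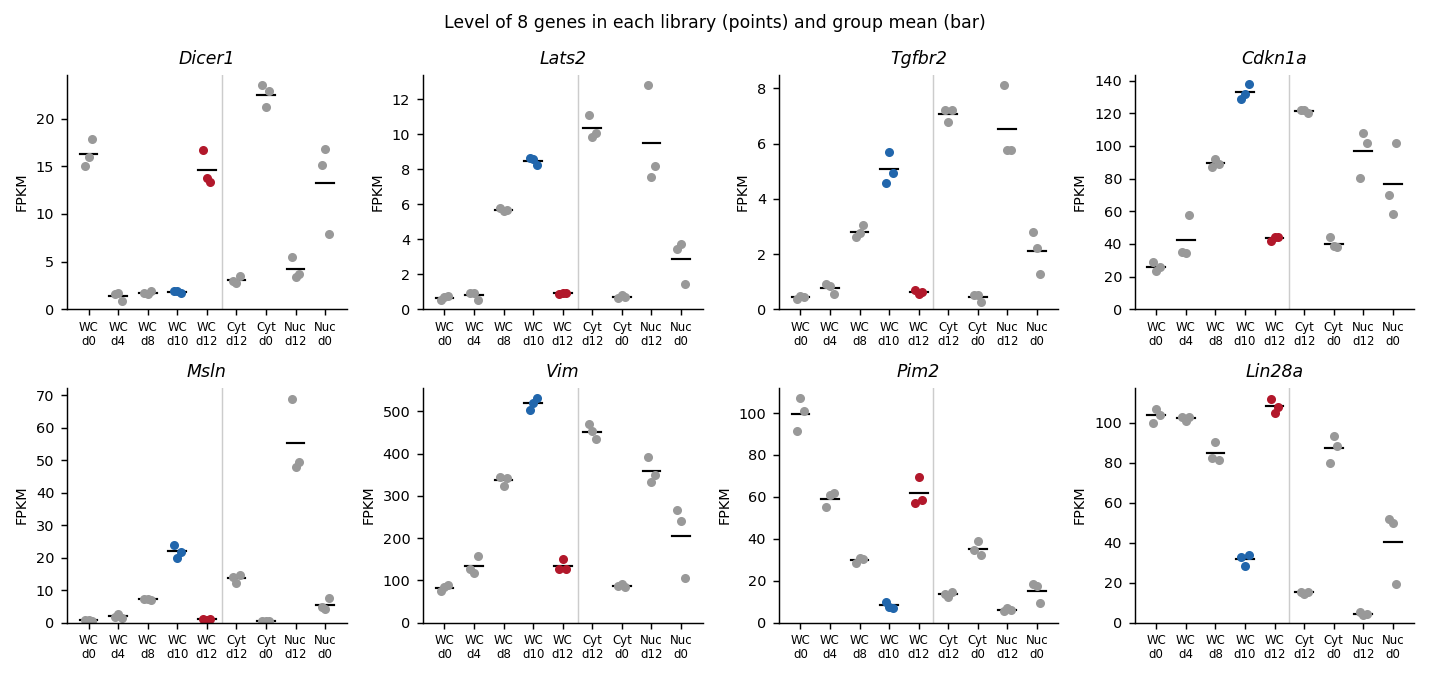
FPKM of 8 genes in each library (points) with the group mean (bar), for whole cells (WC) by day and for cytoplasm (Cyt) and nucleus (Nuc). In red, the whole cell libraries labelled day 12 hold 13.4 to 16.7 FPKM of Dicer1 and 0.848 to 0.942 FPKM of Lats2, whereas day 10, in blue, holds 1.68 to 1.9 and 8.25 to 8.63 FPKM.

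Sorting all genes by the site gave the same direction over many more genes, the listed targets with a site among them. Of 12721 protein-coding genes with an annotated 3′ UTR and a value, 434 (3.41%) carried AGCACTTA, read on the strand of the transcript, and 10571 carried no AGCACTT. Genes with the 8-base site had a median of -0.39, against 0.01 in genes without a site. Their 3′ UTRs were longer, with a median of 2797 bases against 924 bases, and length is taken up below. Of the site genes 52.8% were lower and 10.1% higher in day 12, whereas of the genes without a site 25.7% were lower and 25.2% higher. Each library labelled day 12, set against the mean of day 10, gave a like value (-0.33, -0.45 and -0.41 in genes with the site). The 7-base site, which 2150 genes carried, gave -0.29.

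Among genes without a miR-290 and miR-302 site, those with longer 3′ UTRs were lower, so the site genes were read within UTR length classes. Genes with this site did not follow that order. In the short, middle and long classes, which hold 4244, 4237 and 4240 genes, the medians of site genes were -0.52, -0.46 and -0.37, against 0.18, -0.03 and -0.19 in genes without a site. The short, middle and long classes hold 25, 98 and 311 site genes, so most lie in the class with the smallest gap. The let-7 site CTACCTCA gave 0.19, -0.11 and -0.18 in the same classes, against 0.18, -0.06 and -0.25 in genes without it. The site ACATTCCA of miR-206-3p, a muscle microRNA whose seed is that of miR-1, gave 0.13, -0.15 and -0.28, against 0.18, -0.05 and -0.22, and ACCAAAGA of the neural miR-9-5p gave 0.16, -0.14 and -0.33, against 0.18, -0.05 and -0.22. The site of miR-223-3p, AACTGACA, gave -0.27 in the short class, against 0.18, from 26 genes, and -0.11 and -0.23 in the middle and long classes, against -0.07 and -0.23. Without length classes the sites of let-7, miR-206-3p, miR-9-5p and miR-223-3p gave -0.14, -0.23, -0.26 and -0.20. Genes without each of these sites gave -0.03, -0.02, -0.01 and -0.03. These medians are descriptions, and no test was made of them.

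**Figure D3:**
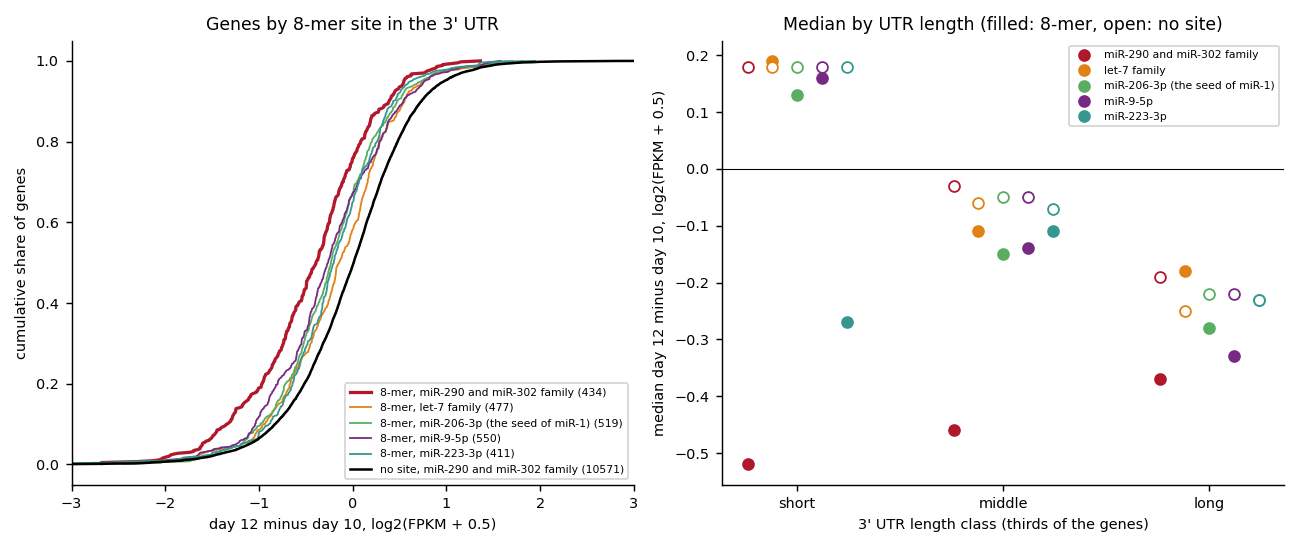
Left, cumulative share of genes by their difference (day 12 minus day 10, log2(FPKM + 0.5)) for 5 kinds of 8-base site and for genes without a miR-290 and miR-302 site, and right, medians of genes with (filled) and without (open) each site in 3 UTR length classes. The miR-290 and miR-302 site genes lie lowest, at -0.52, -0.46 and -0.37.

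Targets of let-7 split in both directions. Of 19 listed genes 6 were higher and 7 lower, with a median of -0.21, which is near the background. Lin28a, an RNA-binding protein that blocks let-7 maturation, held 112, 105 and 108 FPKM in day 12, against 32.6, 28.4 and 33.8 FPKM in day 10 (1.77 ± 0.07, SE, adjusted p = 7.23e-09), with no overlap. The cyclin Ccnd2 held 3.39, 6.09 and 3.81 FPKM in day 12, against 27.4, 27.9 and 30 FPKM in day 10 (-2.59 ± 0.15, adjusted p = 6.94e-08). Lin28a was thus among the higher genes and the cyclins Ccnd2 and Ccnd1 (-1.35 ± 0.17, adjusted p = 3.56e-05) among the lower ones.

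In the microRNA machinery 3 of 12 tested members were lower. The 1 higher member was Dicer1, whose difference was known when the comparison was chosen, so the higher count is no result about the list. Over all genes 25.2% were lower, so the lower count of this list lies near the background. Ago1, an Argonaute protein that carries microRNAs, was at 7.2, 6.03 and 6.2 FPKM in day 12, against 22.6, 26 and 27.2 FPKM in day 10 (-1.89 ± 0.24, SE, adjusted p = 3.56e-05). Tnrc6a, which joins Argonaute to the silencing machinery, was lower by -1.41 ± 0.11 and Dgcr8, the partner of Drosha, by -0.57 ± 0.12 (adjusted p = 7.41e-07 and 0.00164). Ago2 averaged 6.57 FPKM in day 12 and 11.5 FPKM in day 10 and did not pass (adjusted p = 0.12). Fitting only the 6 libraries put 8 members of the list among the lower genes, where 31.7% of all genes were lower.

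Cell cycle and p53 genes leaned lower. Of 24 G1 to S regulators 11 were lower and 1, E2f4, was higher (0.34, adjusted p = 0.00818). The inhibitors of Cdk4 and Cdk6 encoded at 1 locus were lower, Cdkn2b by -1.74 ± 0.17 and Cdkn2a by -1.65 ± 0.11 (SE, adjusted p = 5.77e-06 and 1.96e-07). Cdk2 and Cdk4 themselves did not pass and averaged 27.8 and 130 FPKM in day 12, against 27.5 and 131 FPKM in day 10. The higher count was 2 without day 10 replicate 3, with a filter of 1 FPKM or with median-of-ratios scaling, and 3 with the 6 libraries alone.

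Of 21 p53 targets 15 were lower and 1 higher, with a median of -0.59. Perp, a desmosomal protein that acts in apoptosis, held 37.9, 35.2 and 31.4 FPKM in day 12, against 114, 121 and 110 FPKM in day 10 (-1.71 ± 0.12, SE, adjusted p = 4.69e-07). Plk2, a polo-like kinase, was lower by -1.59 ± 0.15, the antiproliferative gene Btg2 by -1.23 ± 0.09, and Mdm2, the ubiquitin ligase of p53, by -1.07 ± 0.14 (adjusted p = 3.72e-06, 4.32e-07 and 4.50e-05). The 1 higher member was Bbc3, which encodes the apoptosis activator PUMA, at 29.6 FPKM in day 12 and 19.1 FPKM in day 10 (0.62, adjusted p = 0.00215). Cdkn1a, Btg2 and Ei24 stand in this list and in the microRNA target list, so the lists are not independent. Of the same targets, Cdkn1a and Rbl2 also stand in the G1 to S list, Lats2 in the Hippo list and Tgfbr2 in the TGF-beta and Nodal list. Ccnd1 and Ccnd2 stand in the let-7 and G1 to S lists. Other lists below share genes too, such as T in the Wnt, primed and mesoderm lists and Gbx2 in the LIF and naive lists.

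Genes of the Bcl2 family and the caspases went both ways, with 5 of 18 higher and 6 lower and a median of -0.08. Bmf and Casp9 were higher (1.45 ± 0.19 and 1.01 ± 0.11, SE, adjusted p = 6.41e-05 and 9.79e-06), whereas Bcl2l11, which encodes the death activator Bim, was lower (-0.98 ± 0.13, adjusted p = 6.85e-05). Bmf is a death activator too, so members of 1 role moved in opposite directions.

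In the contractile list and in the basement membrane and integrin list no member was higher in the libraries labelled day 12, and most were lower. Of 17 contractile cytoskeleton genes 16 were lower and none was higher, with a median of -0.85, and Cnn1 did not pass (11.3 FPKM in day 12 and 13.2 FPKM in day 10, adjusted p = 0.174). Acta2, smooth muscle actin, held 30.4, 34.4 and 29.9 FPKM in day 12, against 171, 172 and 178 FPKM in day 10 (-2.44 ± 0.15, SE, adjusted p = 1.35e-07). Vim, the intermediate filament vimentin, held 126, 151 and 128 FPKM in day 12, against 504, 520 and 533 FPKM in day 10 (-1.94 ± 0.11, adjusted p = 6.28e-08). The replicates of each group stood close together and far from the other group. Cald1, an actin-binding protein, was lower by -1.68 ± 0.10 (adjusted p = 8.99e-08).

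Of 19 basement membrane and integrin genes 12 were lower and none higher, with a median of -0.92. The collagen IV chains Col4a1 and Col4a2, neighbours in the genome, were lower by -2.25 ± 0.18 and -2.01 ± 0.17, and the integrins Itga5 and Itgav by -2.03 ± 0.15 and -2.03 ± 0.23 (SE, adjusted p = 8.54e-07, 1.32e-06, 6.47e-07 and 1.44e-05). The laminin chain Lama1 did not pass and averaged 8.73 FPKM in day 12 and 7.5 FPKM in day 10.

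Hippo, TGF-beta and BMP genes were also lower on balance. In the Hippo list 13 of 18 were lower and 2 higher, with a median of -0.72, and Ccn2, a secreted target of this pathway, held 32.5, 27.2 and 27.1 FPKM in day 12, against 118, 111 and 115 FPKM in day 10 (-1.97 ± 0.19, SE, adjusted p = 3.72e-06). Of the 2 higher members, Stk3 and Tead2, 1 was left when day 10 replicate 1 or 2, or day 12 replicate 1 or 3, was taken out. In the TGF-beta and Nodal list 10 of 18 were lower and 3 higher, with a median of -0.40. The receptor Tgfbr1 and the signal carrier Smad2 were lower by -1.21 ± 0.11 and -1.24 ± 0.10 (SE, adjusted p = 2.62e-06 and 7.24e-07), whereas Smad4 averaged 15.9 FPKM in day 12 and 17.5 FPKM in day 10 and did not pass.

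Of 9 BMP targets and receptors 6 were lower and none higher. The inhibitors of differentiation Id2 and Id1, direct BMP targets, were lower by -1.81 ± 0.11 and -1.74 ± 0.16 (SE, adjusted p = 1.03e-07 and 2.21e-06). Id1 held 18, 25.5 and 19.1 FPKM in day 12, against 71, 71.8 and 68.1 FPKM in day 10. The Wnt list gave 6 higher and 4 lower of 11, with a median of 0.29, and its members with the largest differences stood at both ends, T at 2.16 ± 0.28 and Notum at -3.09 ± 0.17 (adjusted p = 4.66e-05 and 5.00e-08).

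**Figure D4:**
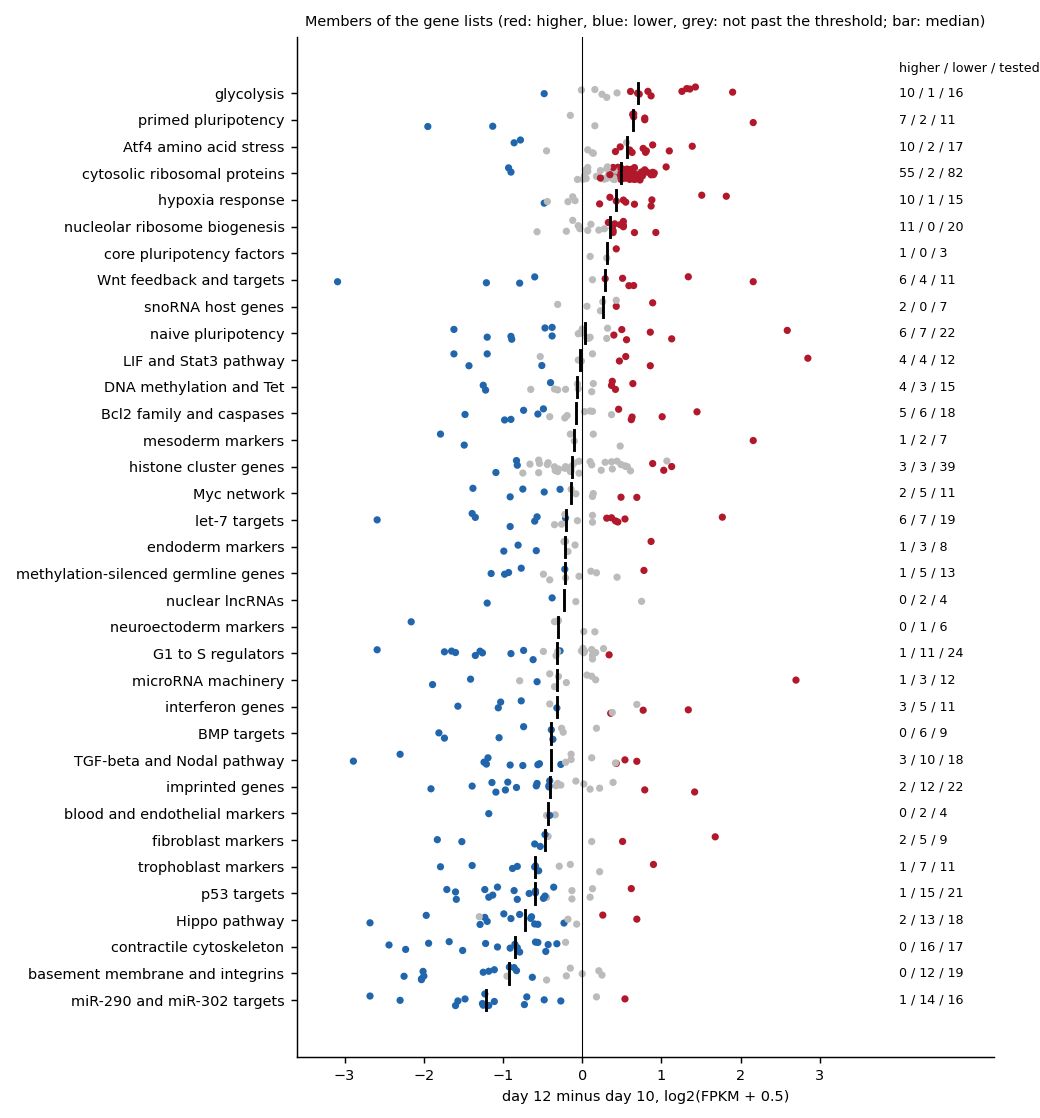
Difference of each tested member (points, day 12 minus day 10, log2(FPKM + 0.5)) of 35 gene lists, with the list's median as a bar and the numbers higher, lower and tested at the right. Glycolysis genes (median 0.71) stand at the top and miR-290 and miR-302 targets (median -1.21) at the bottom.

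Embryonic stem cell identity was measured in both groups. Pou5f1 held 373, 441 and 425 FPKM in day 12, against 407, 369 and 379 FPKM in day 10, with overlapping libraries (0.10 ± 0.09, SE, adjusted p = 0.387). Nanog averaged 243 ± 13.8 FPKM in day 12 and 196 ± 6.67 FPKM in day 10 (SD, n = 3 each, adjusted p = 0.0837), and it passed only where the 6 libraries were fitted alone (0.31, adjusted p = 0.00303). Its libraries did not overlap between the groups. The main fit takes its spread from all whole cell days, and Nanog had an SD of 51.2 FPKM in day 4. Sox2 was higher, with 189, 162 and 175 FPKM in day 12, against 133, 126 and 131 FPKM in day 10 (0.43 ± 0.09, adjusted p = 0.00169). The core factors were thus abundant in all 6 libraries.

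Naive pluripotency genes split near the background, 6 higher and 7 lower of 22 with a median of 0.03. Dppa3, also known as Stella, a maternal factor that marks naive cells and germ cells, held 109, 119 and 130 FPKM in day 12, against 18.7, 19.1 and 20.5 FPKM in day 10 (2.59 ± 0.16, SE, adjusted p = 1.06e-07). Tcl1, a cofactor of Akt, was higher by 1.13 ± 0.14, whereas the homeobox gene Gbx2 and the chromatin factor Dppa2 were lower by -1.62 ± 0.13 and -1.20 ± 0.09 (adjusted p = 3.88e-05, 8.48e-07 and 5.00e-07). Esrrb did not pass and averaged 86.5 ± 5.51 FPKM in day 12 and 89.6 ± 4.8 FPKM in day 10 (SD, n = 3 each). Dppa3 stood out from the rest of the list in size.

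Genes of the primed state were more often higher, 7 of 11 with 2 lower and a median of 0.64. T, the mesoderm factor Brachyury, held 2.62, 3.65 and 2.73 FPKM in day 12, against 0.728, 0 and 0.27 FPKM in day 10. Zic2 and Dnmt3b, the de novo DNA methyltransferase, were higher by 0.79 ± 0.11 and 0.64 ± 0.15 (SE, adjusted p = 1.10e-04 and 0.00359), and the cadherin Cdh2 was lower by -1.95 ± 0.19 (adjusted p = 4.27e-06). Dnmt3a held between 7.15 and 7.93 FPKM over the libraries of day 12, against 9.26 to 9.74 FPKM in day 10, and did not pass (-0.31 ± 0.13, adjusted p = 0.0658), except with the 6 libraries alone (adjusted p = 0.00643). In the DNA methylation list 4 of 15 were higher and 3 lower (5 lower with the 6 libraries alone). These counts lie near the 20.6% higher and 25.2% lower over all genes. Of the higher ones, Mbd4 did not pass without day 10 replicate 3 or day 12 replicate 1 or 3. The methyl-binding proteins Mbd2 and Mbd1 were lower by the most (-1.25 ± 0.10 and -1.22 ± 0.15, adjusted p = 1.29e-06 and 2.53e-05).

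LIF signalling genes gave 4 higher and 4 lower of 12. Pim2, a serine-threonine kinase induced by Stat3, held 57.2, 69.5 and 58.5 FPKM in day 12, against 9.74, 7.61 and 7.11 FPKM in day 10 (2.85 ± 0.11, SE, adjusted p = 6.27e-09). The shared receptor chain Il6st and the ligand Lif were lower (-1.43 ± 0.26 and -1.20 ± 0.16, adjusted p = 6.65e-04 and 5.01e-05). Receptor and ligand therefore differed from Pim2 in direction. In the Myc network Mxd4, an antagonist of Myc, and Myc itself were lower (-1.38 ± 0.16 and -0.91 ± 0.17, adjusted p = 2.24e-05 and 9.28e-04), with 5 of 11 lower and 2 higher, of which 1 was left without day 10 replicate 1 or 2, or day 12 replicate 2 or 3.

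In the glycolysis, hypoxia, amino acid response and ribosomal lists more members were higher than lower in the libraries labelled day 12. Of 16 glycolysis genes 10 were higher and 1 lower, with a median of 0.71. The aldolase Aldoa held 859, 796 and 825 FPKM in day 12, against 314, 330 and 325 FPKM in day 10 (1.36 ± 0.08, SE, adjusted p = 1.36e-07), and the aldolase Aldoc was higher by 1.90 ± 0.11 (adjusted p = 1.03e-07). The phosphofructokinases Pfkl and Pfkp were higher by 1.43 ± 0.12 and 1.32 ± 0.08 (adjusted p = 1.57e-06 and 9.69e-08), whereas the glucose transporter gene Slc2a1 averaged 232 FPKM in day 12 and 233 FPKM in day 10 and did not pass.

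Of 15 hypoxia response genes 10 were higher and 1 lower, with a median of 0.43. Bnip3, a mitophagy receptor, held 35.1, 27 and 37.8 FPKM in day 12, against 10.5, 7.69 and 8.98 FPKM in day 10 (1.82 ± 0.16, SE, adjusted p = 1.72e-06). Of 17 genes of the Atf4 amino acid response 10 were higher and 2 lower, with a median of 0.56, among them Chac1, which breaks down glutathione (1.39 ± 0.15, adjusted p = 1.18e-05), and Asns, asparagine synthetase, at 253, 275 and 272 FPKM in day 12, against 125, 120 and 129 FPKM in day 10 (1.10 ± 0.09, adjusted p = 1.19e-06). Atf5 was lower by -0.86 ± 0.17 (adjusted p = 0.00138).

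Of 82 cytosolic ribosomal protein genes 55 were higher and 2 lower, with a median of 0.49. The higher count was 35 without day 12 replicate 3, and quantile normalization gave 42 higher and 6 lower with a median of 0.25. The lower count was 1 without day 10 replicate 2 or day 12 replicate 1. Rplp1 and Rps10 were higher by 1.06 ± 0.21 and 0.91 ± 0.12 (SE, adjusted p = 0.00126 and 7.18e-05). The lower members were the paralogs Rpl39l and Rpl10l (-0.93 ± 0.28 and -0.90 ± 0.18, adjusted p = 0.0154 and 0.00144), and Rpl39l did not pass without day 10 replicate 2 or day 12 replicate 1. Ribosomal protein genes have many near-identical copies, and how reads with several matches were treated is not given in the sources used here, so single members are uncertain. Of 20 nucleolar ribosome biogenesis genes 11 were higher and none lower, with a median of 0.35, and with quantile normalization 9 were higher and 1 lower. With the 6 libraries alone 2 were lower.

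The genes with the largest differences were not all members of these lists. Above Dicer1 stood Ndufa4l2, a mitochondrial protein known as a hypoxia-induced gene, at 9.12, 7.14 and 7.17 FPKM in day 12, against 0.163, 0.319 and 0.181 FPKM in day 10 (3.52 ± 0.28, SE, adjusted p = 8.06e-07). Crabp1, which binds retinoic acid, and Prelid2 were higher by 2.80 ± 0.19 and 2.71 ± 0.20 (adjusted p = 2.58e-07 and 4.52e-07). Fgf8, a growth factor of the early embryo, held 2.58, 3.48 and 2.57 FPKM in day 12, against 0.104, 0 and 0.348 FPKM in day 10 (2.40 ± 0.25, adjusted p = 7.38e-06). With Pim2 and Dppa3 above, Ly6g6e, Rgcc and Copz2 made up the 10 largest, at 2.65, 2.50 and 2.45.

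At the other end stood Msln, the surface glycoprotein mesothelin, at 1.1, 0.799 and 0.998 FPKM in day 12, against 24, 20 and 21.7 FPKM in day 10 (-3.94 ± 0.17, SE, adjusted p = 9.84e-09). Thbs1, the matrix protein thrombospondin, held 7.53, 5.98 and 5.04 FPKM in day 12, against 69.7, 70.8 and 66.6 FPKM in day 10 (-3.40 ± 0.34, adjusted p = 5.23e-06). The serpin Serpinb9b, the collagen crosslinking enzyme Lox, the lipase Pla2g7, the coagulation factor F3 and the membrane protein Emp1 followed, at -3.39, -3.18, -3.17, -3.08 and -3.05.

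The remaining members of the 10 largest lower genes, Notum, a Wnt-inactivating enzyme, Notumos and Myadml2os, lie side by side on chromosome 11 (chr11:120653788-120661175, chr11:120659157-120661815 and chr11:120647670-120657061 on GRCm38, matched by gene identifier). Notum held 2.25, 3.76 and 2.63 FPKM in day 12, against 28.9, 27 and 27.8 FPKM in day 10, and Notumos and Myadml2os were lower by -3.17 and -3.09. The spans of Notumos and Myadml2os each overlap part of that of Notum and not each other. The strand setting of the counting is not given in the sources used here, so in the shared stretches reads of Notum cannot be told apart from those of its neighbours.

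Marker lists of other cell types were read beside these. Their counts stand beside 25.2% lower and 20.6% higher over all genes tested. Of 14 fibroblast markers 9 passed the filter, with 5 lower and 2 higher, and the summed level of the list was 92.7 to 118 FPKM in day 12 and 88.7 to 104 FPKM in day 10, with Lum at 0 in day 12 and at 0.0251 FPKM in day 10. The lower count was 3 without day 10 replicate 2 or day 12 replicate 3. Without the filter 8 markers were lower. Thy1 was higher (1.68 ± 0.15, SE, adjusted p = 2.83e-06), as was the fibrillar collagen Col1a2 (0.51, adjusted p = 0.00715, at 1.15 FPKM in day 12 and 0.659 FPKM in day 10). Dcn was lower (-1.83 ± 0.23, adjusted p = 3.30e-05, at 0.0846 FPKM in day 12 and 1.59 FPKM in day 10). Of 12 trophoblast markers 11 were tested, with 7 lower and 1 higher, and the sum was 377 to 418 FPKM in day 12 and 534 to 569 FPKM in day 10. Hand1 and Gata3 were lower (-1.79 ± 0.21 and -1.39 ± 0.15, adjusted p = 1.97e-05 and 1.31e-05) and Tfap2c higher (0.90 ± 0.11, adjusted p = 2.95e-05).

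Of 12 endoderm markers 8 were tested, with 3 lower and 1 higher (sums 5.05 to 5.73 FPKM in day 12 and 6.46 to 7.23 FPKM in day 10), and Ttr was at 0 in all 6 libraries. Of the lower ones, Cxcr4 lost its call with no filter, median-of-ratios scaling, quantile normalization or the replicate number as a block. It also lost it without day 10 replicate 1 or 3, or without any single library of day 12. Of 10 mesoderm markers 7 were tested, with 2 lower and 1, T, higher (sums 7.62 to 9.03 FPKM in day 12 and 9.88 to 12.2 FPKM in day 10). The higher count was 2 without day 10 replicate 3 or day 12 replicate 3, and with median-of-ratios scaling or quantile normalization. Of 10 neuroectoderm markers 6 were tested (sums 64.8 to 68.7 FPKM in day 12 and 74 to 75.8 FPKM in day 10), and Sox1 was the 1 that passed (1.04, 1.05 and 0.935 FPKM in day 12, against 6.71, 5.58 and 6.5 FPKM in day 10). With no filter, and with the 6 libraries alone, 2 neuroectoderm markers were lower. Of 9 blood and endothelial markers 4 were tested and 2 were lower, or 1 without day 10 replicate 1 or 2 or day 12 replicate 3. Their sum was 16.9 to 18.6 FPKM in day 12 and 25.9 to 27.8 FPKM in day 10, with Hbb-bh1 at 0 in all 6 libraries. The part of these marker lists in the differences of the adhesion and matrix genes was not tested.

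The level of the members was also read beside that of whole cells at day 0. Msln averaged 0.965 ± 0.152 FPKM in day 12, 21.9 ± 1.97 FPKM in day 10 and 0.773 ± 0.148 FPKM in day 0 (SD, n = 3 each). For Lin28a the same means were 109 ± 3.35, 31.6 ± 2.81 and 104 ± 3.2 FPKM. These genes lay near their day 0 level in the libraries labelled day 12, and others did not. T and Fgf8 averaged 3 ± 0.565 and 2.88 ± 0.527 FPKM in day 12, 0.333 ± 0.368 and 0.15 ± 0.178 FPKM in day 10, and 0.529 ± 0.149 and 0.471 ± 0.101 FPKM in day 0. Vim averaged 135 ± 14 FPKM in day 12, 519 ± 14.7 FPKM in day 10 and 82 ± 6.95 FPKM in day 0, and Dnmt3b 70.7 ± 3.53, 45.2 ± 0.868 and 134 ± 20.2 FPKM. In the same fit 13.6% of genes passed between day 12 and day 0 (10.2% higher and 3.34% lower) and 43.7% between day 10 and day 0 (27.7% higher and 16% lower). The 3 comparisons share libraries pairwise, so their calls are not independent.

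Comparisons that share no library with this one gave the opposite direction for most of their genes. Whole cells at day 8, in which Dicer1 was at 1.71 FPKM, were set against day 0, and the libraries labelled day 12 against day 10 in a fit of those 6 alone, where 26.5% of genes were higher and 31.7% lower. Of 4175 genes higher at day 8, 2884 (69.1%) were lower in day 12 than in day 10 and 201 (4.81%) were higher, with a median of -0.57. Of 2309 genes lower at day 8, 1713 (74.2%) were higher in day 12, with a median of 0.59. These make up 58.9% of the genes that were lower in day 12 and 41.8% of those that were higher.

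The fractions labelled day 12, set against those of day 0, showed the same reversal. Of the genes higher in the day 12 cytoplasm 77.3% were lower in whole cells labelled day 12 than in day 10, and of those lower there 63.7% were higher. They make up 72.1% of the lower and 78.5% of the higher genes. For the nucleus the shares were 86.5% and 72.8%, which make up 14.7% of the lower and 20.2% of the higher genes. Most genes that were higher in the fractions labelled day 12 than in those of day 0 were thus lower in whole cells labelled day 12 than in day 10, and the reverse.

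Whole cell RNA holds nuclear and cytoplasmic RNA, so a whole cell level can be set beside the span of the fractions. Only protein-coding and lncRNA genes that averaged at least 1 FPKM in the whole cells or in a fraction were read. Of 13126 such genes, 9.38% of the mean levels in whole cells labelled day 12 lay outside the span of all 6 fraction libraries labelled day 12. The margin was more than 1 on the log2 scale, with 398 above and 833 below. The span runs from the lowest to the highest of the 6 libraries, so 1 deviating library widens it. Single replicates gave 8.08%, 10.3% and 10.5%. For whole cells at day 10 against the same fractions the share was 0.388% (17 genes above and 33 below), and for whole cells at day 0 against the fractions of day 0 it was 0.882%. By this measure whole cells labelled day 12 lay farther from the fractions labelled day 12 than whole cells labelled day 10 did. FPKM is relative within each library, and no test was made of these shares.

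**Figure D5:**
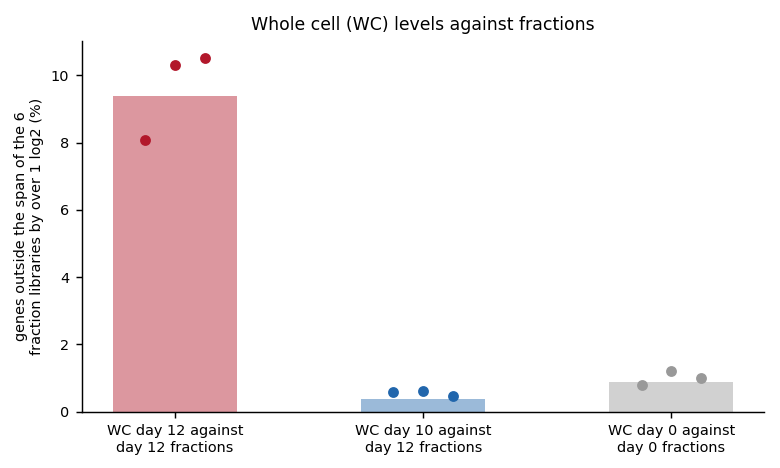
Share of genes (%) whose whole cell (WC) level lies outside the span of 6 fraction libraries by more than 1 on the log2 scale, as the group mean (bar) and in each replicate (points). The bar of the libraries labelled day 12 stands at 9.38%, against 0.388% for day 10 beside the same fractions.

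The depth and the agreement of replicates were alike in the groups. Correlations of log2 values within a group were 0.99 to 0.991 in both, no 2 libraries of the series held identical values, and 12706 to 12933 genes in day 12 and 12940 to 12990 genes in day 10 reached 1 FPKM. Whole cells at day 4, whose spread also enters the main fit, gave correlations of 0.9666 to 0.9893. The fit of the 6 libraries alone, in which Nanog, Dnmt3a and Malat1 passed, leaves that spread out. The nucleus gave 0.9728 to 0.9925 at day 12 and 0.9625 to 0.9907 at day 0. Read totals are not given in the files. The step size of low FPKM values gave relative depths of 0.932 to 1.16 in day 12 and 0.766 to 1 in day 10, with replicate 1 of day 10 set to 1.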

How the data were processed

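The deposited value is FPKM per the file headers, 1 for each of 38123 genes and 27 libraries (polyadenylated RNA, paired reads of 100 bases per the labels' protocols). From the submitters' processing notes come the names TopHat2 2.0.9 and Cufflinks 1.3.0 and the build mm9. Not given in the sources used here are the annotation, the strand setting and the handling of multiply matching reads. The files labelled whole cell day 12 list genes unsorted, with LINC names in capitals, and were joined by gene identifier, for 36375 of which a symbol was found. This format goes with 1 of the groups compared. A difference in how those files were made therefore cannot be told apart from a difference between the groups.

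limma 3.58.1 (R 4.3.3, eBayes with a trend, 15 whole cell libraries, a mean per day) tested log2(FPKM + 0.5) for the 15991 genes that averaged 0.5 FPKM or more on 1 day, with Benjamini-Hochberg adjustment over all of them at 0.05. Differences of genes with low FPKM come out too small on this scale. The labels call the 3 libraries of a group replicates without naming separate cultures, so p-values measure only the spread among them, which may be technical. FPKM is relative within a library. The replicate numbers did not pair the libraries. The limma step was first tested on simulated data.

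The members and the 36 gene lists were chosen with earlier results of these data known. Named genes are the 10 with the largest higher and the 10 with the largest lower difference (past the threshold, at least 2 FPKM in 1 group, no overlap, no predicted models or pseudogenes), up to 4 members of each list, the followed genes Dicer1, Lats2, Cdkn1a, Casp2, Rbl2, Tgfbr2, Pou5f1, Nanog, Sox2, Dnmt3a, Dnmt3b, Mdm2, Malat1 and Neat1, and members singled out as not passing or at 0. E2f4, Lefty2, Bbc3, Stk3, Tead2, Ei24, Col1a2 and the lncRNAs outside the lists were named after their values were seen.

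For coordinates and 3′ UTRs the annotation was GENCODE M21 (GRCm38), joined on the gene identifier. The longest 3′ UTR of each gene set both its sites and its length class, whichever transcript the cells expressed. Some items are not reported here. Sites for miR-122 and miR-124 were not analysed here, and miR-206-3p stood in for miR-1. The settings changed were the pseudocount (0.1 and 1), the filter (none, or 1 FPKM), median-of-ratios scaling, quantile normalization, only the 6 libraries, the replicate number as a block and each library left out, and for the sites and fractions those given below. Python 3.11.15, numpy 2.4.6, pandas 2.3.3 and matplotlib 3.10.9 were used.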

Additional observations from a re-analysis of the deposited data

How the results depend on the processing

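The counts of all, higher and lower genes stayed within 1.5 times the values above under each of the 15 alternatives run for them. Dicer1 kept its direction too, but this was known when the comparison was chosen, so it is no check. Quantile normalization gave 3839 higher and 3745 lower genes, and the fit of the 6 libraries alone 4100 and 4896. Leaving out 1 library gave 2710 to 2921 higher and 3312 to 3749 lower genes. With the replicate number as a block 7016 genes passed, 3157 higher and 3859 lower, but libraries with the same number did not deviate together (r = -0.079, -0.007 and -0.011), so the numbers were not read as pairs. The median of genes with a miR-290 and miR-302 site was -0.29 with 7-base sites and -0.33 with quantile normalization. With a margin of 0.5 in place of 1, the share of genes in which whole cells labelled day 12 lay outside the fractions was 28.2%, against 4.13% for day 10 and 5.02% for day 0. Pou5f1, which did not pass, changed sign to -0.12 with quantile normalization (adjusted p = 0.192). Of 2068 values of 138 named genes other than Dicer1 under the alternatives, 35 lost their call and 3 gained one. Genes named after their values were seen, and members named only as not passing or at 0, are not among the 138. Of 1050 list counts 53 moved by over 1.5 times. The alternative of protein-coding and lncRNA genes alone was chosen after seeing the data (3286 higher and 4009 lower genes). For each of these the cause was not tested. Read totals are unknown, so no counting error is given for low genes.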

Other observations

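Among long noncoding RNAs a smaller share passed than among all genes tested, of which 45.8% passed. Of 1258 lncRNA genes tested 177 were higher and 215 lower in the libraries labelled day 12 (31.2%), against 2967 and 3664 of 12823 protein-coding genes (51.7%). Neat1, the scaffold of nuclear paraspeckles, held 2.83, 1.98 and 2.26 FPKM in day 12, against 6.64, 5.93 and 5.56 FPKM in day 10 (-1.20 ± 0.21, SE, adjusted p = 5.24e-04 in limma). Malat1, a nuclear speckle RNA, held 59, 78.7 and 76.3 FPKM in day 12, against 55, 40.7 and 32.6 FPKM in day 10, and did not pass (adjusted p = 0.166), except with the 6 libraries alone (0.75, adjusted p = 0.0116). Outside the lists and chosen after their values were seen, Halr1, next to the Hoxa cluster, was lower (1.27, 1.04 and 1.67 FPKM in day 12, against 10.4, 7.91 and 10.2 FPKM in day 10) and Platr14, a transcript of embryonic stem cells, was higher (36.4, 31.2 and 35.8 FPKM in day 12, against 12.4, 10.4 and 9.21 FPKM in day 10). Of 22 imprinted genes 12 were lower and 2 higher, beside 25.2% lower and 20.6% higher over all genes tested. Plagl1 and Igf2 were lower (-1.91 ± 0.13 and -1.39 ± 0.14, adjusted p = 3.85e-07 and 6.38e-06) and Phlda2 was higher (1.42 ± 0.16, adjusted p = 1.59e-05).

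Germline genes summed to 52.6 to 53.8 FPKM in day 12, against 69.1 to 78.7 FPKM in day 10. Of 13 germline genes tested 5 were lower, or 3 without day 10 replicate 1 or day 12 replicate 3, and 1 was higher, or none without day 10 replicate 2 or 3 or day 12 replicate 3. With a pseudocount of 1, median-of-ratios scaling, quantile normalization or the 6 libraries alone 2 were higher. The germ cell helicase gene Ddx4 held 6.74, 6.86 and 8.25 FPKM in day 12, against 17.8, 17.8 and 14.7 FPKM in day 10 (-1.15 ± 0.11, adjusted p = 3.72e-06). The 7 genes of the 2-cell stage with values, the Zscan4 family among them, stayed under the filter, with sums of 0.152 to 0.195 FPKM in day 12 and 1.18 to 1.75 FPKM in day 10. Among interferon genes 3 of 11 were higher and 5 lower, with Bst2, a surface antiviral protein, at 118, 121 and 145 FPKM in day 12, against 52.7, 48.5 and 48.7 FPKM in day 10 (1.34 ± 0.11, adjusted p = 1.58e-06). Of 39 histone cluster genes 3 were higher and 3 lower, or 1 lower without day 10 replicate 2 or day 12 replicate 2 or 3, and 5 were higher with the 6 libraries alone. Of 7 snoRNA host genes 2 were higher, or 1 without day 10 replicate 2 or 3 or day 12 replicate 2 or 3.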
